A study of Mus musculus with 6 samples.

Results

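The genes of glucose uptake, glycolysis, lactate and pyruvate handling, and the pentose phosphate pathway were examined in mouse bone marrow-derived basophils (BMBAs) stimulated with IL-3. The 36 genes were taken by symbol from a table of 37043 gene symbols, and all 36 were present in it. They were taken for their place in the pathway, with earlier results of these data known. A filter on low counts left 16675 genes for testing and 35 of the 36. Fbp1, the gene of a fructose bisphosphatase that runs glycolysis backwards, had 1 to 6 reads per library and was not tested.

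Both groups were cultured from the bone marrow of wild-type C57BL/6J mice. Cytokine was given at 0.3 ng/mL during the 7 days of culture, and the cells were then enriched with beads against CD49b, a surface integrin of basophils. The methods of the study name that cytokine as IL-3, so that the control cells had also been raised in it. The PBS group then received only buffer and the IL-3 group received 10 ng/mL IL-3, and RNA was collected after 6 h. There were 3 libraries per group, from separate cultures of a single experiment, so p-values measure the spread between these cultures. Library totals ranged from 10537540 to 13999287 reads. Expression is given in CPM, reads scaled to a common library size after TMM scaling (a correction that assumes that most genes do not change), as mean ± SD with n = 3 per group.

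Glycolysis splits glucose into pyruvate in the cytosol and yields ATP without oxygen. Its flow is set mainly where glucose enters the cell, where hexokinase traps it and where phosphofructokinase commits it, and each of these steps is served by several isozymes with different tissue patterns. The pentose phosphate pathway branches off after hexokinase and gives NADPH and ribose. Cytokines of the IL-3 family are known to sustain the glucose uptake of blood cells that depend on them.

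The enriched cells carried basophil transcripts at high levels. Prss34, a basophil serine protease, stood at 5615 ± 323 CPM with PBS and at 5661 ± 183 CPM with IL-3. Transcripts of monocytes and macrophages were also abundant and lower with IL-3. Lyz2, which encodes lysozyme, had 10456 ± 432 CPM with PBS and 5348 ± 316 CPM with IL-3 (edgeR adjusted p = 6.02e-11). Of 10 such markers 7 were called lower and 2 higher, none was at 0 throughout, and their summed level ranged from 11842 to 12779 CPM with PBS and from 6183 to 6817 CPM with IL-3. Of the other marker lists, 5 of 7 basophil genes were called higher and 1 lower. Among mast cell genes, 4 of 6 tested were called higher, led in abundance by Cpa3, a carboxypeptidase, at 547 ± 38.8 and 793 ± 21.7 CPM. Neutrophil genes gave 3 higher and 1 lower of 6 (Lcn2 at 41.5 ± 3.60 and 57.6 ± 0.426 CPM), eosinophil genes 1 higher and 3 lower of 4 (Ear2 at 134 ± 5.75 and 51.3 ± 8.39 CPM), and erythroid genes 2 lower of 4 (Hba-a1 at 80.1 ± 33.1 and 36.6 ± 11.8 CPM). Lymphoid markers summed to at most 3.76 CPM in any library, with Cd79a at 0.930 ± 0.586 and 1.28 ± 0.383 CPM. Beside these counts, 38.2% of all genes tested were called in either direction, and 50.1% of those with a mean of at least 10 CPM. In such bulk libraries, fewer cells of a type and less RNA per cell cannot be told apart. Mitochondrial transcripts took 3.53% to 3.58% of the reads with PBS and 2.01% to 2.07% with IL-3. The part of these differences in the results was not tested.

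IL-3 changed most of the pathway's genes, and in both directions. By edgeR's quasi-likelihood test with an adjusted p below 0.05, 13 of the 35 tested genes were higher with IL-3 and 10 were lower, while 12 were not called. That is 65.7% called, beside 38.2% of all genes tested, of which 18.0% were called higher and 20.2% lower. Among genes with a mean of at least 10 CPM the background was 50.1%, with 26.8% higher and 23.4% lower, and 13 of the 32 pathway genes of that abundance were called higher and 9 lower. The median log2 fold change of the 35 genes was 0.03 and that of all genes tested was -0.0033. All 3 IL-3 libraries lay above all 3 PBS libraries for 15 genes and below them for 9, against 23.8% and 24.4% of all genes tested (48.2% in either direction). Scaling by library totals alone shifted the median of all genes to -0.17 and gave 10 higher and 13 lower pathway genes. The sign of positive values smaller in size than that shift thus depends on the scaling.

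The rises fell on particular genes within the steps. Of the 13 genes that rose, 5 more than doubled: Pfkp, Slc16a3, Eno1, Slc2a1 and Slc2a3. Of the 10 that fell, Ldhb and Aldoc more than halved. In the 5 enzymes of lower glycolysis there were 3 calls, all higher, and 3 of the 4 calls among 6 pentose phosphate genes were lower. Among all genes with a mean of at least 10 CPM, 26.8% were called higher and 23.4% lower. A difference between these steps was not tested, and the counts are small. The count in lower glycolysis depends on the scaling, since with library totals only Eno1 was called higher there and Pgam1 was called lower. The plot of fold changes by step shows this order.

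**Figure D1:**
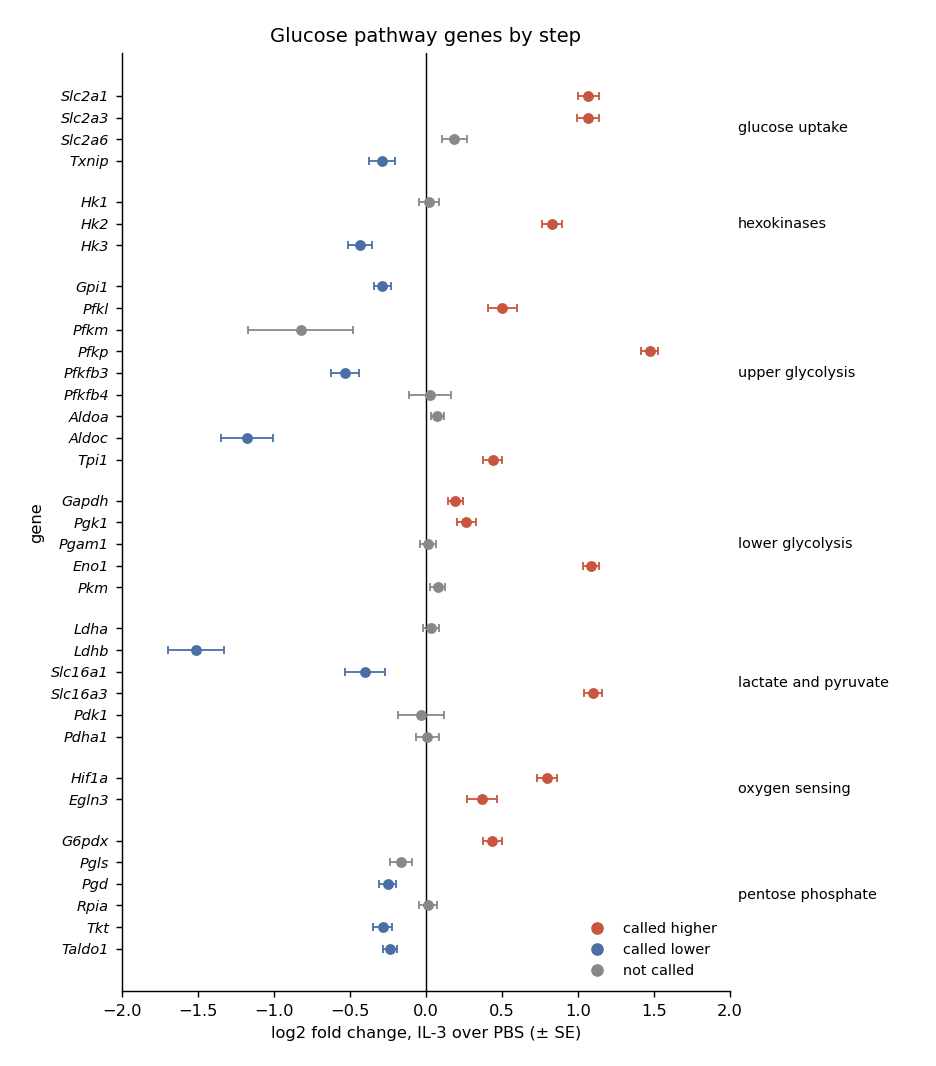
The x axis gives the log2 fold change of IL-3 over PBS with its SE for each of the 35 tested genes, grouped by step from top to bottom, and colours mark genes called higher (13), lower (10) or not called (12) at an adjusted p below 0.05. Pfkp (1.47) lies farthest to the right and Ldhb (-1.51) farthest to the left.

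Several of the genes that rose most are known in other cells as targets of the factor HIF-1, which binds the core ACGTG or GCGTG. The upstream sequences of those with ACGTG in the 250 bases before a RefSeq transcription start are shown because these genes rose together, and that of Pfkp because its rise was the largest. They are given 5′ to 3′ on build GRCm38.p6, and capitals mark ACGTG or GCGTG on either strand (CACGT or CACGC where read on the opposite strand).
Slc2a1 (chr4:119108495-119108744, plus strand): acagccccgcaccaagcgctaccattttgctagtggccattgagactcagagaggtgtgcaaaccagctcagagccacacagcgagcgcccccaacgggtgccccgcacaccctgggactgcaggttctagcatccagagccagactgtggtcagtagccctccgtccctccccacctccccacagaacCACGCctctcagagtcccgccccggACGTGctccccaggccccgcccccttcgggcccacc
Hk2 (chr6:82774455-82774704, minus strand): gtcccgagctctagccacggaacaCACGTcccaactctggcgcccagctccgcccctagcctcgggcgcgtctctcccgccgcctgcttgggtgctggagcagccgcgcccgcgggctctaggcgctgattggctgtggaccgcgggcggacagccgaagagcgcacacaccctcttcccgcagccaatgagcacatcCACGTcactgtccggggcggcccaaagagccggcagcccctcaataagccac
Pfkp (chr13:6648772-6649021, minus strand): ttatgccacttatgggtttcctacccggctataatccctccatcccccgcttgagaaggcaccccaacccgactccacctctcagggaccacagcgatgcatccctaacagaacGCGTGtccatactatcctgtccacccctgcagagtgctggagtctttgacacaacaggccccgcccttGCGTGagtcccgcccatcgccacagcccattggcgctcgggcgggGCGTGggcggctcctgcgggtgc
Slc16a3 (chr11:120948817-120949066, plus strand): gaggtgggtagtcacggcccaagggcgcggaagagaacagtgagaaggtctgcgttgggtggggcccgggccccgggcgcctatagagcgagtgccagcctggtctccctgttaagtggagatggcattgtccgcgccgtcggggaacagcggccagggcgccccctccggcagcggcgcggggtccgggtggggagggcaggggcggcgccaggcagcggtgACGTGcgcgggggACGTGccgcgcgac
Hif1a (chr12:73907617-73907866, plus strand): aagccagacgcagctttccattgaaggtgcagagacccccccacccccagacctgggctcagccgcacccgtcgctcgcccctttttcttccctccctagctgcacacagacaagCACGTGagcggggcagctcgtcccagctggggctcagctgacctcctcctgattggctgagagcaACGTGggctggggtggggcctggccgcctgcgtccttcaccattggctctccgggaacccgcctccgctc
Slc2a1, Hk2, Slc16a3 and Hif1a were chosen for a match to ACGTG, so that each held at least 1 follows from the choice. Eno1 and Pfkl, which also rose by at least 0.5 in log2 fold change, held no ACGTG in their windows and are not shown. The 3 matches of Hif1a included 2 that overlap in a single CACGTG, the palindromic E-box, which reads as ACGTG on both strands. Pfkp held no ACGTG and 3 matches to GCGTG in this stretch. A part of HIF-1 in the rises was not tested. ACGTG also occurred near genes that did not rise, as given below. Among genes outside glycolysis that respond to low oxygen, 5 were called higher and 5 lower of 15 tested.

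A RefSeq window of 300 bases (250 before and 50 after the start) was found for 35 of the 36 genes, all but Slc2a3. ACGTG occurred in a window of 18 of these genes, or 51.4%, and in 21.8% of all genes with a window, expressed or not. By call, ACGTG occurred in 8 of 12 genes that rose, 4 of 10 that fell and 6 of 12 that were not called. Ldha held 5 matches in a window and was not called (log2 fold change 0.03). Aldoa (0.08) and Pgam1 (0.01), with 1 match in a window, were not called either. Pfkfb3 held 2 matches in a window and fell (log2 fold change -0.53). GCGTG occurred in 24 of the 35 (35.2% of all genes), and these were 6 of the genes that rose, 8 that fell and 10 not called. CACGTG, every copy of which also counts as ACGTG, was found for 5 genes (8.09% of all). TTCNNNGAA, the core bound by STAT factors, was found for 2 (9.55% of all). A match is a description of the letters in the window and not a site of binding.

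Transcripts of 2 glucose transporters, Slc2a1 and Slc2a3, rose with IL-3. Slc2a1 (chr4:119108711-119137983, plus strand, GRCm38) encodes GLUT1, the widely expressed transporter of basal uptake. It had 45.6, 49.3 and 46.8 CPM in PBS replicates 1 to 3 and 103, 102 and 92.1 CPM in IL-3 replicates 1 to 3. Every IL-3 library was higher than every PBS library, with a log2 fold change of 1.07 (SE 0.0692, adjusted p = 4.47e-09). Slc2a3 (chr6:122727809-122801640, minus strand) encodes GLUT3, a transporter of high affinity. It had 78.9, 72.0 and 73.9 CPM with PBS and 141, 160 and 169 CPM with IL-3. The groups did not overlap here either, and the log2 fold change was 1.06 (SE 0.0719, adjusted p = 7.68e-09). The ratio of the transporters differed by less than the spread between libraries, with a log2 ratio of Slc2a1 to Slc2a3 of -0.67 ± 0.12 with PBS and -0.66 ± 0.22 with IL-3 (SD, n = 3).

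Slc2a6, which encodes the lysosomal transporter GLUT6, was at 37.3 ± 2.74 and 42.5 ± 1.80 CPM. Its libraries did not overlap, but the difference did not pass the test over all genes (log2 fold change 0.19, adjusted p = 0.0911). Txnip encodes an arrestin-like protein that draws GLUT1 from the cell surface, and its gene is known to respond to glucose itself. It had 364, 403 and 424 CPM with PBS and 285, 376 and 314 CPM with IL-3. IL-3 replicate 2 lay above PBS replicate 1, so the groups overlapped, although Txnip was called lower (log2 fold change -0.29, SE 0.0834, adjusted p = 0.0123). The call of Txnip was lost without PBS replicate 3 (adjusted p = 0.0583), without IL-3 replicate 1 (adjusted p = 0.0611) and in the DESeq2 Wald test (adjusted p = 0.0943). A further 15.7% of the 50-base stretches of its transcripts are shared with the overlapping antisense gene Gm15441.

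Hexokinases, which phosphorylate glucose and so keep it in the cell, changed in different directions. Hk2 (chr6:82725025-82774454, minus strand) encodes the inducible isozyme that binds to mitochondria. It had 54.4, 62.0 and 56.8 CPM with PBS and 99.9, 105 and 103 CPM with IL-3. All IL-3 libraries were above all PBS libraries, and the log2 fold change was 0.83 (SE 0.0662, adjusted p = 5.82e-08). Hk3, the isozyme of myeloid cells, fell from 63.9 ± 3.22 to 47.5 ± 3.91 CPM (log2 fold change -0.43, adjusted p = 0.000383), with no overlap. Hk1, the isozyme found in most tissues, had 54.9 ± 0.485 and 55.6 ± 1.90 CPM and was not called. Its log2 fold change of 0.02 (SE 0.068, adjusted p = 0.848) turned to -0.14 when libraries were scaled by their totals.

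The share of each isozyme was computed from CPM per kb of its longest transcript, within each library. Hk2 took 23.0%, 25.2% and 24.6% of the hexokinase total with PBS and 39.1%, 40.2% and 41.2% with IL-3. Hk3 took 46.0% ± 1.33 with PBS and 31.8% ± 2.22 with IL-3, and Hk1 29.7% ± 1.002 and 28.1% ± 1.17. The order of the isozymes depends on the transcript length assumed. By the longest or the principal transcripts Hk3 ranked highest with PBS and Hk2 with IL-3, but by the median transcript length Hk1 ranked highest in both groups (59.6% and 52.1%), with Hk3 at 15.8% and 10.1%. The change of a ratio does not depend on length. The log2 ratio of Hk2 to Hk3 rose by 1.26 and that of Hk1 to Hk2 fell by 0.81, both without overlap between the groups.

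Transcripts of phosphofructokinase, the committing step of glycolysis, included the largest rise of the pathway. Pfkp (chr13:6579768-6648777, minus strand) encodes the platelet-type subunit. It had 122, 128 and 135 CPM with PBS and 347, 355 and 362 CPM with IL-3. The lowest IL-3 library stood far above the highest PBS library, with a log2 fold change of 1.47 (SE 0.0556, adjusted p = 5.72e-12), the 346th highest of all genes tested. Pfkl, the liver-type subunit, had 35.3, 31.6 and 37.9 CPM with PBS and 47.9, 56.0 and 44.8 CPM with IL-3. It rose without overlap, by less than Pfkp (log2 fold change 0.50, SE 0.0974, adjusted p = 0.000673). Pfkm, the muscle-type subunit, was at 1.38 to 3.88 CPM in all libraries, with a log2 fold change of -0.82 that did not pass the test (adjusted p = 0.0732).

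Pfkp accounted for 58.7% ± 2.98 of the 3 subunits per length with PBS and 74.7% ± 2.43 with IL-3. Over the principal transcripts, whose length for Pfkp is 4145 rather than 8681 bases, its share was 74.8% and 86.1%. Pfkl made up 37.1% ± 1.35 and 24.2% ± 2.18 by the longest transcripts, although its own level rose. The log2 ratio of Pfkl to Pfkp fell by 0.97 with no overlap.

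Of the 2 enzymes that tune phosphofructokinase, Pfkfb3 fell and Pfkfb4 was not called. Pfkfb3 encodes a kinase and phosphatase that makes fructose 2,6-bisphosphate, the strongest activator of phosphofructokinase. It had 36.4, 32.6 and 32.9 CPM with PBS and 22.3, 24.1 and 24.2 CPM with IL-3. All IL-3 libraries were below all PBS libraries, with a log2 fold change of -0.53 (SE 0.0923, adjusted p = 0.000272). The related Pfkfb4 had 10.4 ± 0.599 and 10.6 ± 1.01 CPM (log2 fold change 0.03, adjusted p = 0.907). Pfkfb3 made up 70.3% ± 1.98 of the pair per length with PBS and 61.7% ± 3.05 with IL-3.

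The other enzymes of upper glycolysis differed from each other. Gpi1, glucose phosphate isomerase, fell from 287 ± 14.8 to 235 ± 6.67 CPM (log2 fold change -0.29, adjusted p = 0.000607), without overlap. Aldoa, the main aldolase, had 1030, 1032 and 1069 CPM with PBS and 1063, 1122 and 1115 CPM with IL-3. The groups of Aldoa overlapped and it was not called (log2 fold change 0.08, adjusted p = 0.189). Aldoc, the brain-type aldolase, had 11.1, 9.91 and 9.25 CPM with PBS and 4.15, 4.08 and 5.12 CPM with IL-3. Its libraries fell without overlap, by a log2 fold change of -1.18 (SE 0.17, adjusted p = 4.40e-05), but Aldoa held 99.5% and 99.8% of the aldolase total per length. Tpi1, triose phosphate isomerase, rose from 125 ± 8.60 to 169 ± 7.02 CPM (log2 fold change 0.44, adjusted p = 4.36e-05).

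**Figure D2:**
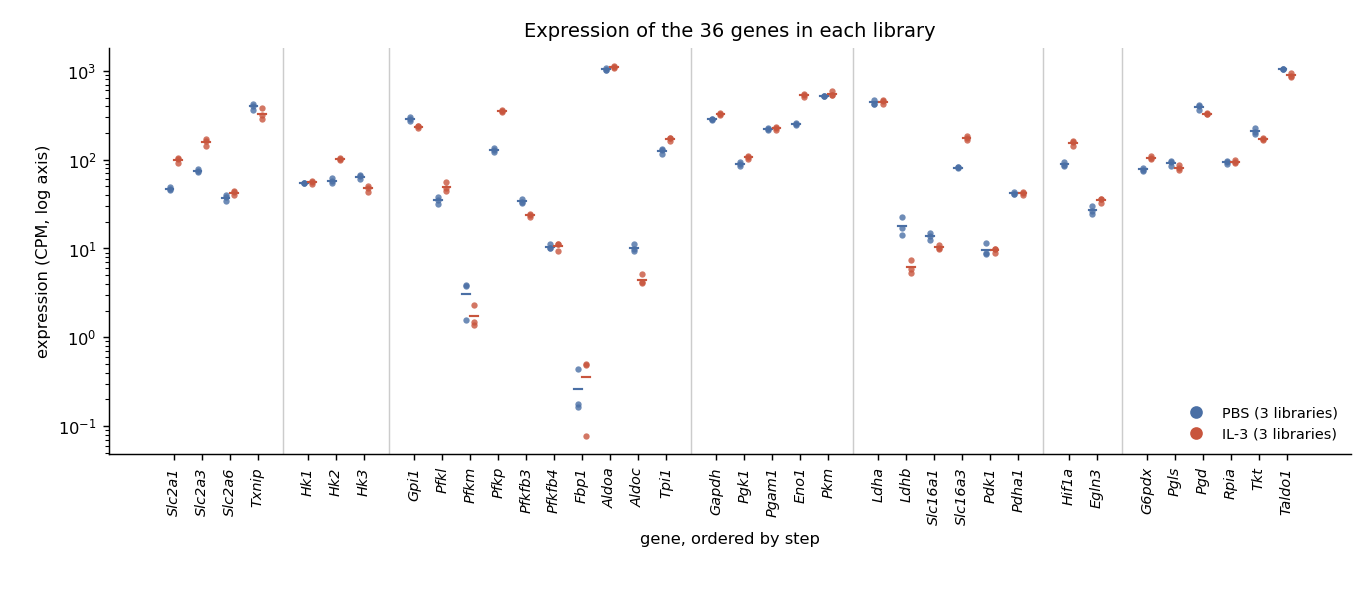
The y axis gives CPM on a log axis for each of the 36 genes, with 3 PBS libraries and 3 IL-3 libraries as points and a short bar at each group's mean, and grey lines separate the steps. Points of the groups are apart for Pfkp, Eno1, Slc16a3 and Ldhb and overlap for Aldoa and Ldha. CPM are not divided by transcript length, so that heights compare groups within a gene.

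In lower glycolysis, where ATP is gained, the largest rise of a transcript was that of enolase. Eno1 (chr4:150236721-150248879, plus strand) encodes the enolase that forms phosphoenolpyruvate. It had 249, 243 and 258 CPM with PBS and 544, 538 and 509 CPM with IL-3. All IL-3 libraries were above all PBS libraries, with a log2 fold change of 1.08 (SE 0.0509, adjusted p = 8.82e-11). Gapdh, which makes the NADH of glycolysis, and Pgk1, which makes the first ATP, rose by less. Gapdh was at 284 ± 5.33 and 325 ± 7.09 CPM (log2 fold change 0.19, adjusted p = 0.00519). Pgk1 was at 88.8 ± 4.30 and 107 ± 3.75 CPM (log2 fold change 0.27, adjusted p = 0.00267). Both stood apart between the groups, and both calls were lost with library totals, where the log2 fold changes were 0.03 and 0.10.

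Pgam1, the phosphoglycerate mutase, had 222 ± 5.89 and 224 ± 6.89 CPM and was not called (adjusted p = 0.874), and with library totals it was called lower at -0.15 (adjusted p = 0.0457). Pkm, the pyruvate kinase, had 527, 525 and 521 CPM with PBS and 536, 589 and 533 CPM with IL-3. Although these libraries did not overlap, the difference was small and not called (log2 fold change 0.08, adjusted p = 0.255), and it was -0.085 with library totals. The Pkm count joins the M1 and M2 isoforms, which share most exons.

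Reads of this step are split between near-identical genes. Copies elsewhere in the genome that shared at least 5% of a gene's 50-base stretches were analysed for 7 of the 36 genes. For Gapdh there were 51 copies, mostly listed as pseudogenes, which together held 2.70 times the reads listed under Gapdh. For Eno1, Eno1b and Gm4735 held 0.747 times its reads, and for Pgk1 and Pgam1 2 copies each held 0.649 and 0.380 times. Summed with their copies, the log2 fold changes were 0.17 for Gapdh (adjusted p = 0.00481), 1.10 for Eno1 (adjusted p = 4.28e-11), 0.29 for Pgk1 (adjusted p = 0.000839) and 0.02 for Pgam1 (adjusted p = 0.741). No call of the 7 genes changed, and the other genes were not summed with copies. The absolute levels of these genes are thus uncertain, as is the split of reads between overlapping neighbours on the opposite strand, which share 10.6% of the stretches of G6pdx (Ikbkg) and 5.10% of those of Pfkp (Pitrm1). A copy of Ldhb, Gm5514, shares 20.99% of its stretches and was not analysed here.

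**Figure D3:**
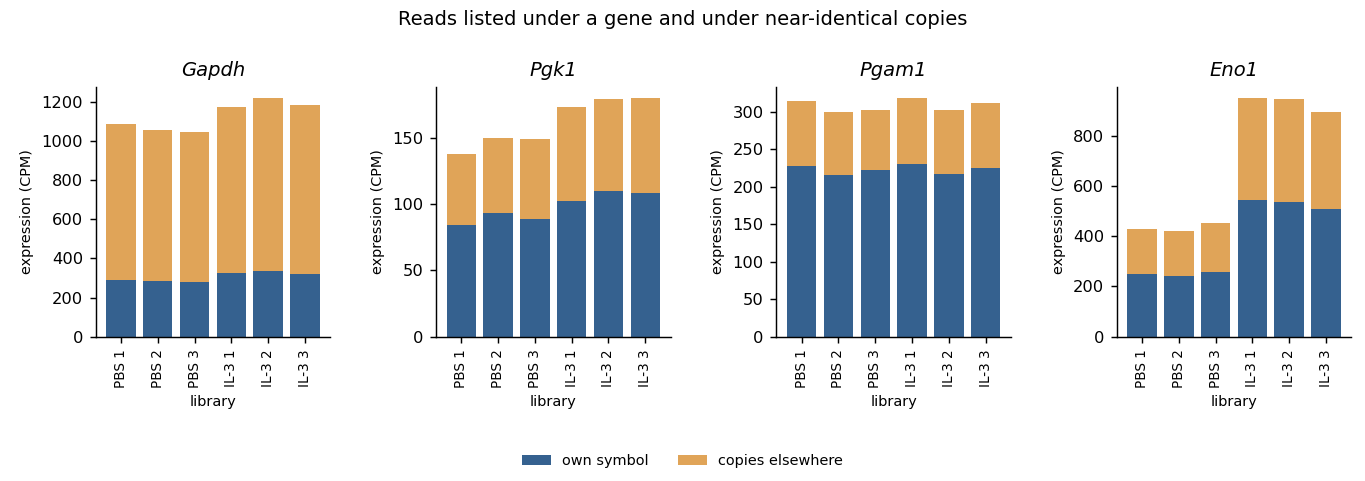
The y axis gives CPM in each of the 6 libraries for Gapdh, Pgk1, Pgam1 and Eno1, with reads under the gene's own symbol below and reads under its copies elsewhere in the genome stacked above. For Gapdh most of each bar is copies, and for Eno1 both parts are higher with IL-3.

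At the end of the pathway, the transcripts of a lactate exporter rose and those of one dehydrogenase subunit fell. Only mRNA was measured, so no flux of glucose or lactate is given here. Ldha, the subunit that favours lactate formation, had 425, 425 and 469 CPM with PBS and 464, 426 and 460 CPM with IL-3. The groups overlapped and Ldha was not called (log2 fold change 0.03, adjusted p = 0.681). Ldhb (chr6:142490249-142507957, minus strand), the subunit that favours pyruvate formation, had 22.4, 14.03 and 17.0 CPM with PBS and 5.33, 5.83 and 7.45 CPM with IL-3. Each IL-3 library was below each PBS library, and the log2 fold change of -1.51 (SE 0.184, adjusted p = 7.36e-06) was the lowest of the pathway and the 228th lowest of all genes tested. Ldhb made up 5.35% ± 1.31 of the pair per length with PBS and 1.88% ± 0.316 with IL-3.

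Slc16a3 (chr11:120948480-120960868, plus strand) encodes MCT4, the lactate exporter of glycolytic cells. It had 80.3, 81.9 and 82.3 CPM with PBS and 166, 182 and 176 CPM with IL-3. The groups were far apart, with a log2 fold change of 1.10 (SE 0.0586, adjusted p = 4.09e-10). Slc16a1 encodes MCT1, which carries lactate both ways, and fell from 13.7 ± 1.24 to 10.3 ± 0.582 CPM (log2 fold change -0.40, adjusted p = 0.0258). Its libraries did not overlap, but its call was lost in 4 of the 6 fits that left out a library, without the filter on low counts and in the DESeq2 Wald test, with adjusted p of up to 0.0972. Slc16a3 made up 85.9% ± 1.14 of the pair per length with PBS and 94.5% ± 0.115 with IL-3. The log2 ratio of Slc16a1 to Slc16a3 fell by 1.499.

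Pdk1 and Pdha1, which bear on the entry of pyruvate into the TCA cycle, were not called, while other genes of that entry were, as given with the TCA cycle genes. Pdk1, a kinase that shuts pyruvate dehydrogenase, had 9.73 ± 1.56 and 9.52 ± 0.550 CPM (log2 fold change -0.03, SE 0.152, adjusted p = 0.898). Pdha1, the catalytic subunit of that enzyme, had 41.6 ± 1.25 and 41.8 ± 1.86 CPM (log2 fold change 0.01, SE 0.0774, adjusted p = 0.940).

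**Figure D4:**
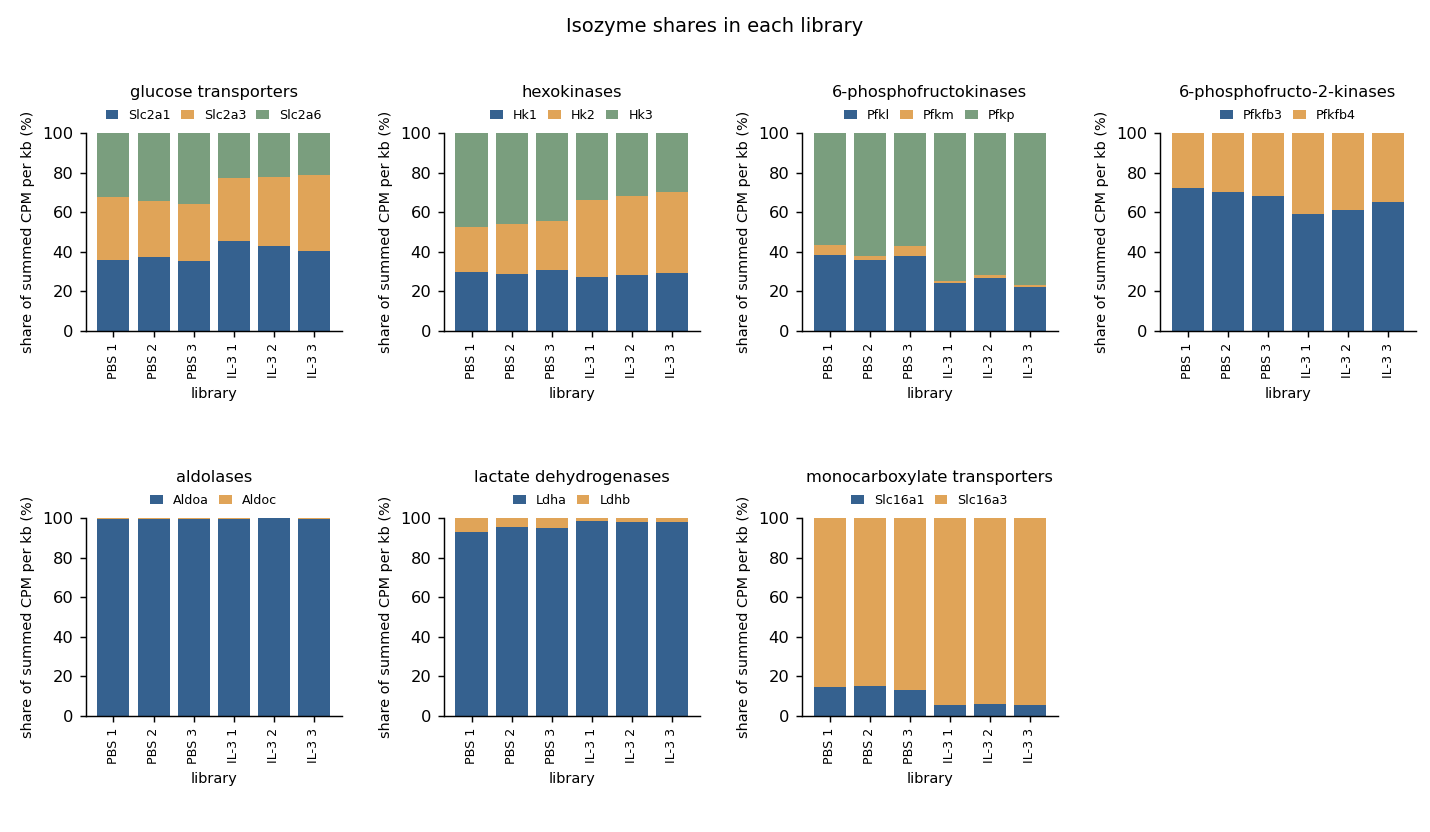
Each panel shows a family of isozymes, with the 6 libraries on the x axis and the share of each isozyme in the family's summed CPM per kb of longest transcript on the y axis. Hk2 and Pfkp take more of their families in the IL-3 libraries, and Hk3, Ldhb and Slc16a1 take less. Aldoc, at most 0.597%, is barely visible.

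Over the 7 families, 15 of the 17 shares did not overlap between the groups, all but those of Hk1 and Slc2a3. Of all single genes tested, 48.2% did not overlap, but no such background exists for shares. Shares within a family are bound to each other, and in a family that is a pair of genes both stand apart or neither does. The exact two-sided permutation test over libraries gave p = 0.1 for the shares without overlap, the smallest value that 3 against 3 libraries allow, and 0.118 after adjustment over the 13 shares tested. Among the glucose transporters, Slc2a6 took 34.2% ± 1.84 with PBS and 22.0% ± 0.735 with IL-3, Slc2a1 36.02% ± 0.998 and 42.8% ± 2.51, and Slc2a3 29.8% ± 2.06 and 35.2% ± 3.24. By the median transcript length, Slc2a1 took 31.2% and 32.7% and Slc2a3 60.2% and 62.5%.

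Both oxygen-sensing genes rose. Hif1a (chr12:73901375-73947530, plus strand) encodes the regulated subunit of HIF-1, whose protein is destroyed when oxygen is present. It had 92.9, 86.5 and 85.6 CPM with PBS and 162, 142 and 156 CPM with IL-3. All IL-3 libraries were above all PBS libraries, with a log2 fold change of 0.80 (SE 0.0647, adjusted p = 7.04e-08). Egln3, a prolyl hydroxylase that marks that protein for destruction and is itself induced by HIF, rose from 27.1 ± 2.95 to 35.0 ± 1.84 CPM (log2 fold change 0.37, adjusted p = 0.00688), without overlap. The call of Egln3 was lost with library totals (log2 fold change 0.21, adjusted p = 0.103).

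In the pentose phosphate pathway, transcripts of the first enzyme rose and those of 3 of the 5 later ones, Pgd, Tkt and Taldo1, fell. G6pdx, glucose-6-phosphate dehydrogenase, which admits glucose to the pathway and makes NADPH, rose from 77.5 ± 3.08 to 105 ± 4.84 CPM (log2 fold change 0.44, SE 0.0625, adjusted p = 4.17e-05). Its libraries did not overlap. Pgd, the second source of NADPH, fell from 390 ± 25.9 to 328 ± 3.13 CPM (log2 fold change -0.25, adjusted p = 0.00187). Tkt, transketolase, fell from 208 ± 14.9 to 170 ± 4.35 CPM (log2 fold change -0.28, adjusted p = 0.00145).

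Taldo1 encodes transaldolase and was the most abundant gene of this branch per length. It had 1047, 1043 and 1038 CPM with PBS and 850, 933 and 872 CPM with IL-3. All IL-3 libraries were below all PBS libraries, with a log2 fold change of -0.24 (SE 0.0461, adjusted p = 0.000725). Pgls, the lactonase, was at 91.1 ± 5.98 and 81.2 ± 5.87 CPM (log2 fold change -0.17, adjusted p = 0.0797). It was called lower in 4 alternatives, and over all of them its log2 fold change ranged from -0.33 to -0.12. Of Pgls, 18.9% of the stretches are shared with its neighbour Fam129c. Rpia, which forms ribose 5-phosphate, was at 93.7 ± 2.95 and 94.5 ± 3.38 CPM (adjusted p = 0.897). The genes that fell here, like every gene called lower, moved in the direction of the summed monocyte and macrophage markers given above. Genes called higher moved in the direction of most of the basophil markers. The part of the cell types in the falls and rises was not tested.

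Summed over the 36 genes, expression was 6394, 6316 and 6492 CPM with PBS and 6923, 7253 and 7013 CPM with IL-3. The mean with IL-3 was 1.10 times that with PBS after TMM scaling, whereas as a plain share of the reads the genes took 0.665% to 0.694% with PBS and 0.646% to 0.686% with IL-3, which overlap. By step, the sum over lower glycolysis was 1369 ± 6.47 and 1739 ± 45.2 CPM, the sum over upper glycolysis 1676 ± 35.0 and 1950 ± 48.4 CPM, and the sum over the pentose phosphate genes 1903 ± 39.8 and 1664 ± 59.8 CPM. These sums are described without a test.

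Other genes of the pathway and its neighbours were read from lists of related genes. Of 40 other glucose genes, which are mostly isozymes of other tissues, 19 were expressed highly enough to test. Of these, 1 was called higher and 6 lower, with a median log2 fold change of -0.18. Bsg, the chaperone that brings MCT1 and MCT4 to the membrane, rose (log2 fold change 0.20, adjusted p = 0.00630). H6pd, which runs the first pentose phosphate steps in the endoplasmic reticulum, fell from 25.2 ± 3.08 to 11.4 ± 1.91 CPM (log2 fold change -1.16, adjusted p = 5.90e-06), opposite in direction to G6pdx. Slc2a8, an intracellular glucose transporter, fell as well (log2 fold change -0.78, adjusted p = 0.00103).

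Genes of pyruvate dehydrogenase and the TCA cycle gave 4 higher and 6 lower of 28 tested, with a median log2 fold change of -0.10. Pdk3, another kinase that shuts pyruvate dehydrogenase, rose from 34.4 ± 2.90 to 54.7 ± 1.87 CPM (log2 fold change 0.67, adjusted p = 8.07e-06). Its relative Pdk2, named outside the rule after its values were seen, fell from 8.24 ± 1.95 to 4.06 ± 0.843 CPM (log2 fold change -1.03, adjusted p = 0.00121). Dlst, a subunit of the oxoglutarate dehydrogenase complex, rose (log2 fold change 0.41, adjusted p = 7.00e-05). Mpc2, a subunit of the carrier that takes pyruvate into mitochondria, fell from 160 ± 9.52 to 115 ± 7.205 CPM (log2 fold change -0.47, adjusted p = 2.71e-05), and so did Mdh1, the cytosolic malate dehydrogenase (log2 fold change -0.44, adjusted p = 0.000166).

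Among the glycogen, hexosamine and serine branches, 3 of 22 tested genes were called higher and 5 lower, with a median of -0.14. Gfpt1, the enzyme that opens the hexosamine branch, rose (log2 fold change 0.67, adjusted p = 3.59e-06). Gnpnat1, a later enzyme of the same branch, also rose (log2 fold change 0.88, adjusted p = 1.33e-05). Mthfd2, an enzyme of mitochondrial folate metabolism, fell (log2 fold change -0.50, adjusted p = 0.00424).

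Genes outside glycolysis that respond to low oxygen were split evenly, with 5 higher and 5 lower of 15 tested and a median of 0.05. Ero1l, an oxidase of the endoplasmic reticulum, rose from 682 ± 37.3 to 1588 ± 24.6 CPM (log2 fold change 1.22, adjusted p = 9.03e-12). Bnip3, a mediator of mitophagy, rose (log2 fold change 1.03, adjusted p = 5.60e-08) while its relative Bnip3l fell from 220 ± 5.87 to 115 ± 5.16 CPM (log2 fold change -0.93, adjusted p = 2.30e-09). Ddit4, an inhibitor of mTORC1, fell (log2 fold change -1.08, adjusted p = 5.89e-08). Of 8 tested genes that control HIF and the glucose-sensing factor MondoA, only Mlx, the partner of MondoA, was called (log2 fold change 0.53, adjusted p = 7.59e-05). The shares called, 36.8%, 35.7%, 36.4%, 66.7% and 12.5% in the order of these 5 lists, stand beside the same background of 38.2%.

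**Figure D5:**
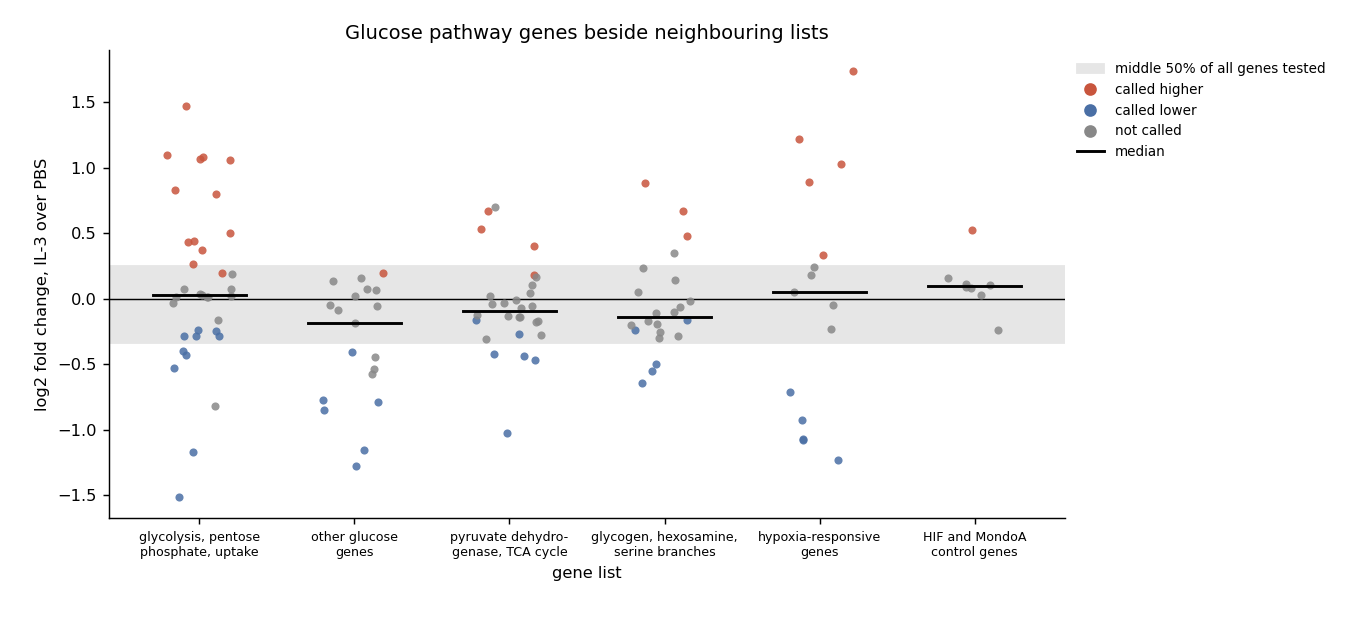
The y axis gives the log2 fold change of IL-3 over PBS for each tested gene of the pathway (left) and of 5 neighbouring lists, with colours for the call, a bar at each list's median and a grey band over the middle 50% of all genes tested (-0.34 to 0.25). Medians lie between -0.18 and 0.10, and the pathway and the hypoxia-responsive genes hold points far above and far below the band.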

How the data were processed

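Counts of 6 bulk RNA-seq libraries were analysed, 3 per group by the labels. The authors deposited raw read counts per gene symbol. Per the methods, reads were trimmed (Cutadapt) and aligned by Bowtie2 to reference RNA of build GRCm38, while the submitters' processing notes name GRCm39. No molecular identifiers are described, so PCR copies count separately. The labels name a column RNA kit and the methods direct lysis.

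After filterByExpr and TMM scaling, groups were compared with edgeR 4.0.16 (quasi-likelihood F test, two-sided, no covariate) in R 4.3.3, since TCC, which the study used, rests on edgeR. P-values were adjusted by Benjamini-Hochberg over the 16675 genes tested, with a threshold of 0.05. Where a library had no read of a gene, 3 reads (0.233 to 0.296 CPM) were still possible, by counting error only. Positions and lengths came from GENCODE M21 and promoter windows from RefSeq, both of GRCm38. Shared sequence was measured in stretches of 50 bases. The pipeline was tested on simulated counts.

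The genes and lists were chosen with earlier results of these data known. All 36 genes are named. Values per library are given for genes called with a log2 fold change of at least 0.5 in size and for the most abundant gene per step, and each other list is represented by up to 2 genes per direction with the smallest adjusted p, or by its most abundant marker. A gene that this rule selects is not reported here. Alternatives were the size factors and Wald test of DESeq2 1.42.0, library totals, iterated TMM, other filters, the exact test, limma-voom 3.58.1, a replicate block, leaving out each library, stricter thresholds and other transcript lengths. Summing genes with their copies and the principal transcript length were added after seeing the data. The chi-square per degree of freedom between libraries was at least 2.75, so none was a duplicate.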

Additional observations from a re-analysis of the deposited data

How the results depend on the processing

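Calls of the pathway genes stood at 13 higher and 10 lower. Only the test against a fold of 1.5, which asks for more by construction, moved the counts beyond 1.5 times, to 7 higher and 2 lower. Leaving out a library gave 13 higher each time and 8 to 12 lower. Scaling by library totals shifted the median log2 fold change of all genes from -0.0033 to -0.17. It turned the log2 ratio of the summed level from 0.14 to -0.019, and it turned Hk1 (-0.14), Pfkfb4 (-0.14), Aldoa (-0.087), Pgam1 (-0.15), Pkm (-0.085), Ldha (-0.13), Pdha1 (-0.15) and Rpia (-0.15), which lay near 0. Calls there were 10 higher and 13 lower. Iterated TMM turned Hk1 (-0.0058), Pgam1 (-0.013), Pdha1 (-0.017) and Rpia (-0.014). Over fits leaving out 1 library, Pfkfb4 ranged from -0.019 to 0.11, Pgam1 from -0.0094 to 0.035, Pdk1 from -0.11 to 0.11, Pdha1 from -0.020 to 0.041 and Rpia from -0.019 to 0.030.

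Pfkm ranged from -1.13 to -0.63 without 1 library and was called lower without PBS replicate 2 or IL-3 replicate 2, with library totals and without the filter on low counts. Pgls was called lower with library totals, with iterated TMM and without PBS replicate 3 or IL-3 replicate 2. Same-numbered replicates did not deviate together (correlations -0.0087, -0.016 and -0.022), and with a replicate block the calls were 13 higher and 10 lower, all of them shared. Isozyme shares and their change between the groups depended on the length used to compute them. The change from PBS to IL-3 moved by more than the spread between libraries for 15 of 17 shares with the median transcript length. It did so for 9 with no division by length and for 4 with the principal transcript. These counts are of the change between groups and not of the shares themselves. With the median length Slc2a6 had 8.55% and 4.85% of its family, and Slc16a1 3.56% and 1.29%. The shares without overlap between groups numbered 15 or 16 under each of these lengths and without any 1 library. Depth limits Fbp1 and Pfkm, which had at most 46 reads in a library.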
